A study of Mus musculus with 6 samples.

Results

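Motile cilia genes were followed in the injured mouse spinal cord. The set held every protein-coding row of the deposited table whose symbol names a cilia and flagella associated protein (Cfap and a number), an axonemal dynein chain (Dnah, Dnai or Dnaic and a number, or Dnali1), a tektin or a radial spoke head protein, together with Foxj1, Ccdc153, Tmem212 and Ak7. It came to 66 of 54532 genes. RNA came from the spinal cord of injured C57BL/6J mice, and the time point in the labels is 28 days after training, untrained mice included. The trained group (SCIT) consisted of 3 libraries from injured mice trained on the rotarod, a turning rod on which a mouse has to keep walking. The untrained group (SCI) consisted of 3 libraries from injured mice that received no training, so the injury was shared by all 6 libraries and uninjured cord was not analysed here. The labels leave unsaid whether each library came from its own mouse, and p-values therefore cover nothing but the scatter among these 6 samples, part or all of which may be technical.

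Ependymal cells line the central canal of the spinal cord and carry motile cilia that move the cerebrospinal fluid. A motile cilium is built on a ring of microtubule doublets, to which inner and outer dynein arms are attached as motors. Radial spokes and a central pair of microtubules set the beat, tektins and many Cfap proteins line or link the doublets, and Foxj1 and the RFX factors switch the genes on. The same axoneme genes also serve the sperm tail, and several Cfap genes are transcribed in cells that have no motile cilium.

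Total counts ran from 15814104 to 26092014 per library. The floor of 3 counts for an undetected gene lay between 0.115 and 0.190 CPM (read counts per library size), computed from total counts alone. All other CPM values were also scaled by TMM factors. One library stood apart from the rest. Trained replicate 1 had 10.7 CPM of Dcn, a proteoglycan of meningeal fibroblasts, against 58.7 to 96.2 CPM elsewhere. It also had 0.581 CPM of Prx, a gene of Schwann cells, against 46.0 to 99.7 CPM elsewhere. The number of members past the test and their median change are given with and without this library. Most other values, those of the comparison lists among them, include it.

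Transcripts of nearly all genes of the set were found in every library, at low levels for most genes. Bulk tissue does not show which cells made them. None of the 66 genes was at 0 counts in all libraries, and 3 of them (Tekt3, Rsph6a and Cfap97d1) were at 0 in at least 1. Levels between genes were compared in TPM, computed from the counts and the gene lengths of the table. The median gene averaged 2.05 TPM over the 6 libraries, 47 of 66 genes averaged at least 1 TPM and 10 averaged at least 10 TPM. By total count the genes spanned 5 to 9853 reads over all libraries, with a median of 360.5, and the median cilia gene stood at percentile 24 of the mean CPM of all genes tested.

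The reads were concentrated in a few genes. Cfap36, which binds the small GTPase Arl3, averaged 103.7 TPM, Foxj1 58.9 TPM, and Tekt5, a tektin known mainly from mouse sperm flagella, 53.3 TPM. These genes held 47.4% of the summed TPM of the set, and the 5 highest, with Cfap97 at 20.8 TPM and Cfap20 at 19.8 TPM, held 56.3%. Cfap298 and Cfap300, which help assemble dynein arms in the cytoplasm, averaged 16.6 and 13.3 TPM, and the spoke head genes Rsph1 and Rsph9 averaged 13.4 and 11.8 TPM. The dynein heavy chains, encoded by transcripts of great length, averaged between 0.210 TPM (Dnah17) and 1.66 TPM (Dnah7b).

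**Figure D1:**
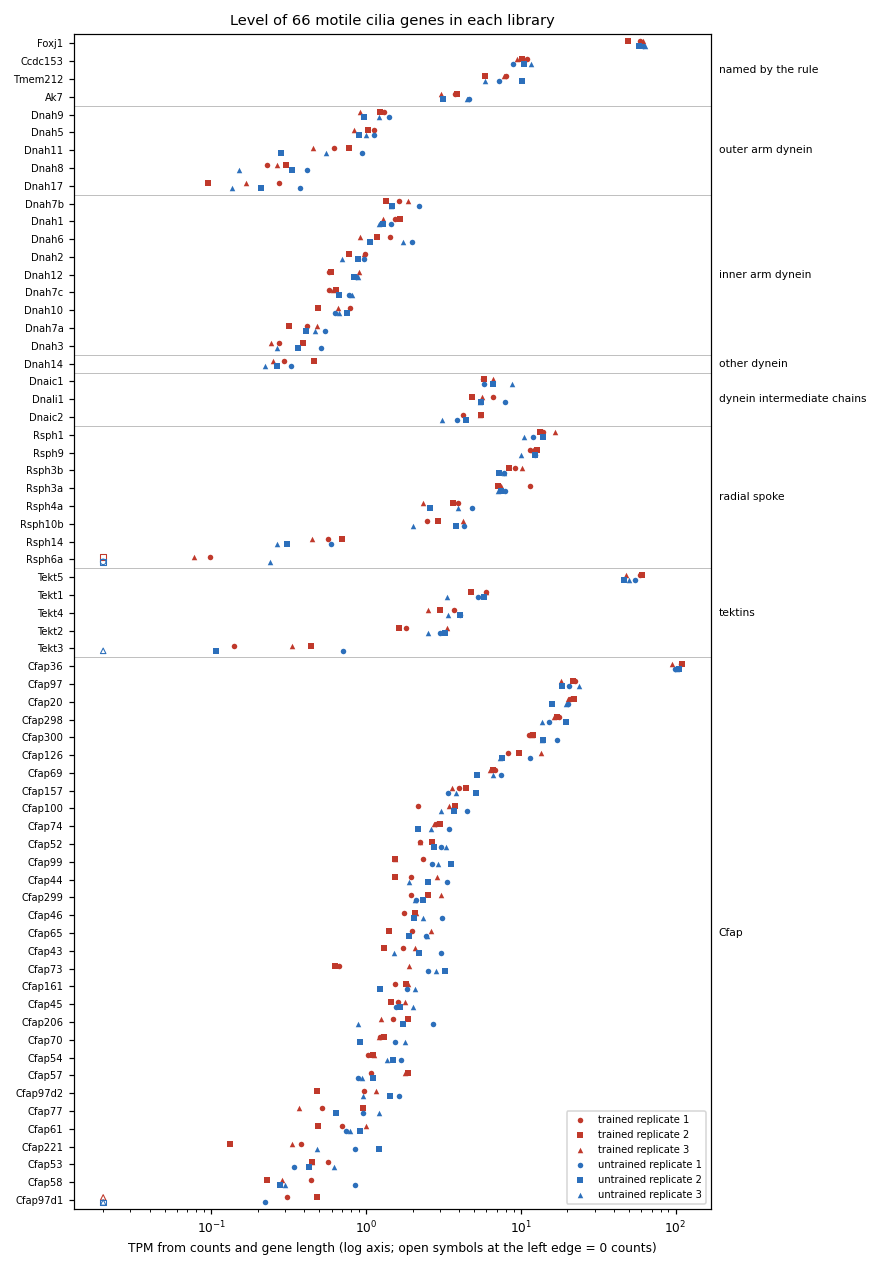
Level of each of the 66 genes in each library, in TPM on a log axis, with genes in rows grouped by role, red symbols for the 3 trained and blue symbols for the 3 untrained libraries; open symbols at the left edge are 0 counts. Cfap36, Foxj1 and Tekt5 lie furthest to the right, the dynein heavy chains average 0.210 to 1.66 TPM, and the red and blue symbols of most genes are mixed.

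Markers of ependymal cells outside the cilium were present as well. Of a list of 8, 7 had enough counts to be tested. Cd24a averaged 129 TPM, S100a11 116 TPM and Rarres2 13.2 TPM, while Mia lay at or below the floor, between 0 and 0.164 CPM. Cd24a and S100a11 are also made by neurons, immune cells and others, so these levels do not belong to ependymal cells alone. Of 6 genes of the choroid plexus, another multiciliated epithelium, 3 had enough counts to be tested, and all 6 summed to 8.75 to 13.2 CPM per library. Their defining gene, Ttr, was at 0.232, 0.0618 and 0.372 CPM in trained libraries and at 0, 0 and 0.128 CPM in untrained libraries. The sperm genes Prm1, Prm2 and Tnp1 together came to between 0.124 and 0.683 CPM.

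Many of the genes, but not all, share a sequence feature that their choice by symbol did not use. RFX factors bind the X-box, a pair of facing half-sites for which GTTGCNA was searched here as 1 common form. Promoters from 250 bases before to 50 bases after the start of transcription were searched on both strands. The promoters were those of the RefSeq promoter table for GRCm38.p6, which held one or more for 54 of the 66 genes. The Cfap44 promoter is shown whole up to the start, from chr16:44394549-44394798 on the plus strand, because it has a pair of adjoining half-sites close to the start, on opposite strands, and another one further up. Capitals mark GTTGCNA on either strand, so that TNGCAAC is the same motif read from the other strand.
Cfap44: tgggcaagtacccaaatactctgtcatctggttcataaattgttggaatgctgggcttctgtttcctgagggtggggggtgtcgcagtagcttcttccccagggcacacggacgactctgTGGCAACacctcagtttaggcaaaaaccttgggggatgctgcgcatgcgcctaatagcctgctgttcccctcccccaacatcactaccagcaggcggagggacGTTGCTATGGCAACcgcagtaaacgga

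Windows of 30 bases around single half-sites of other members are shown because they let the sites be compared from gene to gene. Each is written from 5′ to 3′ on the strand where the site reads GTTGCNA, which is in capitals. The first 3 belong to near-copies of the Dnah7 gene, then come an outer arm intermediate chain and 2 Cfap genes, and last the most abundant members that have a half-site.
Dnah7a: ggtcgattcGTTGCTAagcaacaaactggc
Dnah7b: ggtcgattcGTTGCTAagcaacaaactggc
Dnah7c: ggtcgattcGTTGCTAagcaacaaactgga
Dnaic2: ccggccaggGTTGCTAggcaactggtaaac
Cfap45: agttcttggGTTGCTAtggtaacgcgtcag
Cfap298: gaagtggctGTTGCCAggggcaacagtcaa
Cfap36: tggcccgtaGTTGCTAggctgagagcagac
Tekt5: tgtgatgtgGTTGCTAggaacttagctcct
Cfap20: cggaacttgGTTGCCAagggactattcccc

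In GRCm38.p6 these windows lie at chr1:53706820-53706849 (Dnah7a, plus strand), chr1:46066821-46066850 (Dnah7b, minus) and chr1:46425441-46425470 (Dnah7c, minus). Those of Dnaic2 and Cfap45 lie at chr11:114727377-114727406 (plus) and chr1:172521102-172521131 (plus). Those of Cfap298, Cfap36, Tekt5 and Cfap20 lie at chr16:90934895-90934924 (plus), chr11:29247415-29247444 (plus), chr16:10395670-10395699 (minus) and chr8:95434949-95434978 (plus). In the first 6 windows and in that of Tekt5 the half-site is followed within 8 bases by GNAAC, with any base at N. GNAAC is a looser form of GCAAC, the end of GTTGCNA read from the other strand. It was found in this place in 11 of the 30 members that have a half-site, but in Tekt5, Cfap57 and Cfap61 the N is G or A. The windows shown thus hold GNAAC more often than the members with a half-site do. How often GNAAC follows a half-site in all promoters was not counted. The Dnah7 copies share their sequence and are not independent cases.

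An RFX half-site was found in 30 of the 54 cilia genes with a promoter (55.6%, exact 95% binomial interval 41.4% to 69.1%), against 3209 of 27025 genes in the whole promoter table (11.9%) and 11.4% of the 12180 tested genes that had a promoter. The share was 7 of 8 for the inner arm heavy chains and 16 of 24 for the Cfap genes, but 1 of 5 for the outer arm heavy chains and 1 of 5 for the radial spoke genes. It was 3 of 5 for the tektins and 1 of 3 for the intermediate and light intermediate chains. The inner arm share and the interval of the whole set count Dnah7a, Dnah7b and Dnah7c as separate genes, although their sites lie in shared sequence. Of Foxj1, Ccdc153, Tmem212 and Ak7, 3 had a promoter and 0 had a half-site. Lists of other cilia genes gave shares close to that of the members. These were 57.5% for motile cilia genes outside the naming rule (23 of 40), 54.5% for dynein docking and assembly genes (6 of 11) and 47.6% for intraflagellar transport genes (10 of 21). None of the 5 non-ciliary ependymal markers with a promoter had a half-site.

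The half-sites clustered near the start. Of 43 half-sites in promoters of members, 33 (76.7%) lay within 100 bases before to 50 after the start, against 56.1% of the half-sites in all promoters. A site in overlapping promoters of a gene, as in Cfap74 and Rsph14, was counted once for each promoter, in both shares. Base composition of the member promoters was 55.4% GC, against 53.8% for all promoters. The forkhead motif TGTTTAC, of the family to which Foxj1 belongs, was found in 5 of 54 cilia genes (Cfap20, Tekt3, Dnah17, Ak7 and Cfap43). That share of 9.26% had an exact 95% interval of 3.08% to 20.3%, against 4.05% of all genes, and no forkhead match overlapped an RFX match in these promoters. Such matches are descriptions of letters and show no binding.

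**Figure D2:**
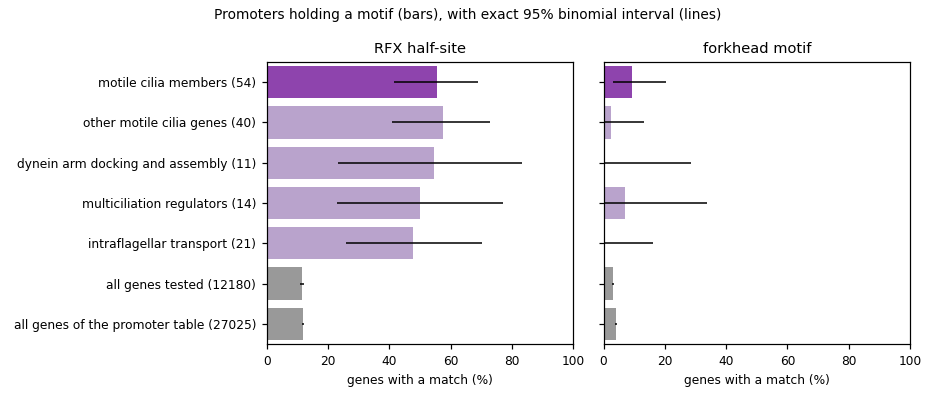
Percentage of genes whose promoter holds an RFX half-site (left) or the forkhead motif (right), with the exact 95% binomial interval as a line and the number of genes with a promoter in brackets. The members and the 4 other cilia lists have a half-site in 47.6% to 57.5% of genes, while all genes tested stand at 11.4%.

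The comparison of trained with untrained cord asked whether rotarod training after injury went with a different level of these genes. No motile cilia gene passed the test. Of the 66 genes 59 had enough counts, and 0 of 59 had an adjusted p below 0.05 by the quasi-likelihood test of edgeR, adjusted after Benjamini and Hochberg over all genes, against 10 of 16909 genes (0.0591%). The smallest edgeR adjusted p of any member was 0.373. Their summed level was 468, 461 and 457 CPM in trained libraries and 484, 448 and 461 CPM in untrained libraries, and the groups overlapped. The 5 members of highest TPM held 50.2% of the member counts, so the sum follows these genes most. In bulk tissue a summed level cannot tell fewer ependymal cells from less RNA per cell, and other cells may add to it.

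Counts below that threshold were also set against those of all genes. An unadjusted edgeR p below 0.05 was found for 4 of 59 members (6.78%), with 1 higher in trained cord, against 4.47% of all genes tested, and 3 lower, against 5.55%. Trained and untrained values did not overlap in 8 of 59 members (13.6%), against 16.8% of all genes. Trained cord lay below in 6 of these, against 8.69% of all genes, and above in 2, against 8.13%. The log2 fold change was negative in 37 of 59 members (62.7%), against 52.0% of all genes, with a median of -0.09 for the members and -0.0080 for all genes. A gene that is high in 1 group alone can enter such a count, as Cfap73 did among the lower ones. With no filter on low counts all 66 members were tested, 0 passed, 5 had an unadjusted edgeR p below 0.05, and the median was -0.07. Without trained replicate 1, 0 members passed and the median was -0.11. With all 6 libraries but without the 5 members of highest TPM, the median was -0.14.

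Given the scatter among these 6 samples, the data limited how large a change could have been present. Part or all of that scatter may be technical, so the limits may not hold between mice. The 95% interval of the log2 fold change lay within 2-fold in either direction for 49 of the 59 members and within 1.5-fold for 16. The median limits were -0.61 and 0.40 on the log2 scale. The median standard error was 0.24 for the members and 0.12 for all genes tested.

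**Figure D3:**
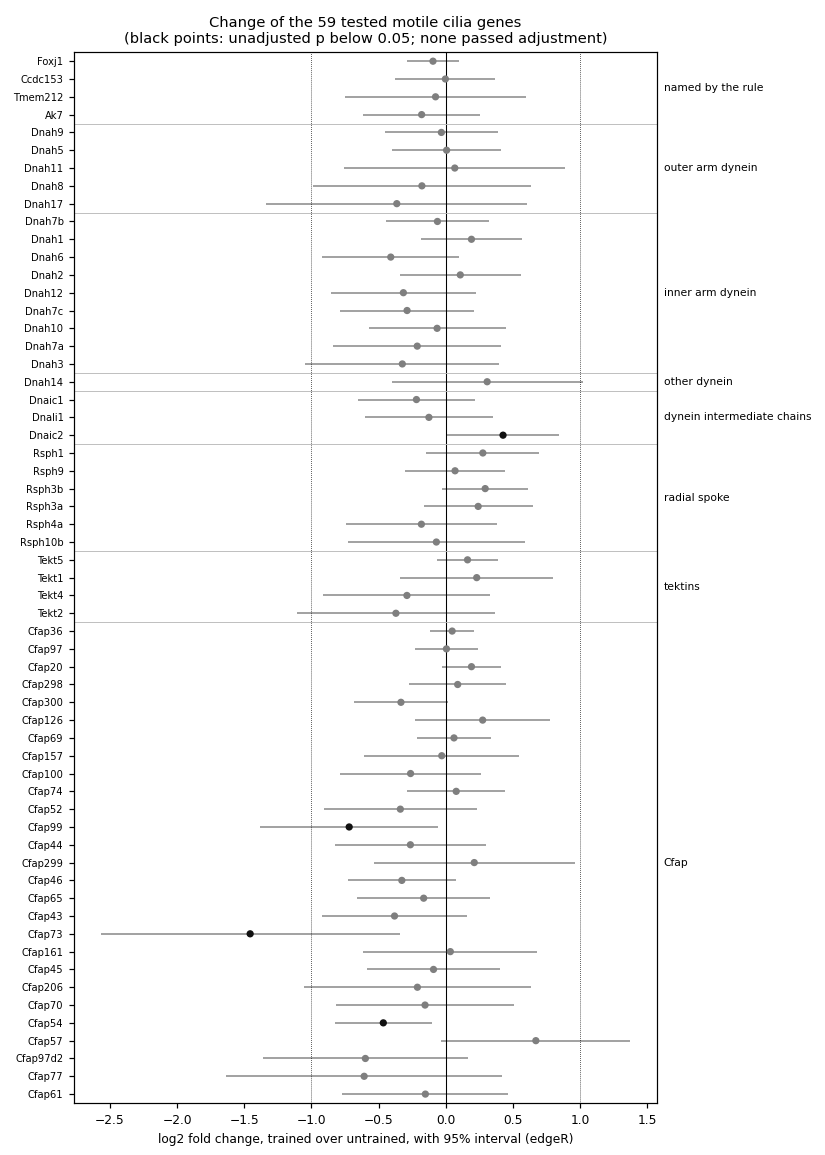
The log2 fold change of each of the 59 tested genes, trained over untrained, with its 95% interval from edgeR, grouped by role; dotted lines mark 2-fold in either direction. The 4 black points (Dnaic2, Cfap99, Cfap73 and Cfap54) had an unadjusted p below 0.05, and none of the 59 passed adjustment.

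Foxj1, the transcription factor that commits a cell to motile cilia, had a range of 1.28-fold over the 6 libraries. It had 48.9, 41.3 and 52.0 CPM in trained libraries and 49.8, 49.3 and 52.8 CPM in untrained libraries. Trained replicate 2 was the lowest and the groups overlapped. Its log2 fold change was -0.09 ± 0.09 (SE, n = 3 per group; 95% interval -0.29 to 0.10; edgeR adjusted p = 0.769). The gene lies at bases 116330704 to 116335399 of chromosome 11, minus strand, in the coordinates of the table.

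The other markers named with Foxj1 did not separate the groups either. Ccdc153, a coiled-coil gene that marks ependymal cells, averaged 6.64 ± 0.421 CPM in trained cord and 6.67 ± 1.0 CPM in untrained cord (SD, n = 3 each). Tmem212, a membrane protein gene of ependymal cells, averaged 1.66 ± 0.261 CPM in trained cord and 1.76 ± 0.522 CPM in untrained cord. Ak7, an adenylate kinase of the axoneme, averaged 4.79 ± 0.565 CPM in trained cord and 5.43 ± 1.0 CPM in untrained cord. All of these groups overlapped, and the edgeR adjusted p was between 0.809 and 0.999. The interval of Ccdc153 was -0.37 to 0.37 on the log2 scale, while that of Tmem212 was wider, at -0.75 to 0.60.

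Among the outer arm dynein heavy chains, the motors that power the beat, 0 of 5 members passed and the median log2 fold change was -0.03. Dnah5 had 5.58, 5.19 and 4.22 CPM in trained libraries and 5.41, 4.57 and 4.98 CPM in untrained libraries. Dnah9, its partner in the distal part of human airway cilia, had 6.54, 6.30 and 4.72 CPM in trained libraries and 6.88, 4.99 and 6.13 CPM in untrained libraries. The log2 fold changes were 0.0069 ± 0.19 for Dnah5 and -0.03 ± 0.19 for Dnah9 (SE). Dnah11, the partner in the proximal part, was more scattered, with 2.83, 3.58 and 2.11 CPM in trained libraries and 4.21, 1.32 and 2.56 CPM in untrained libraries. Both extremes of Dnah11 were untrained libraries, 3.18-fold apart. Dnah8 and Dnah17, known mainly from sperm flagella, averaged only 0.282 and 0.210 TPM.

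Of the 9 inner arm heavy chains, which shape the waveform, 7 had a negative log2 fold change and 2 a positive one, with a median of -0.21 and none past the test. Dnah6 had the largest of these differences, with 5.96, 5.0 and 3.91 CPM in trained libraries and 8.08, 4.51 and 7.28 CPM in untrained libraries. Untrained replicate 2 lay within the trained range, and the log2 fold change of Dnah6 was -0.41 ± 0.24 (SE; edgeR adjusted p = 0.585). Dnah1 leaned the other way at 6.21 ± 0.764 CPM in trained cord and 5.43 ± 0.399 CPM in untrained cord. Dnah7c did not overlap between groups, with 2.28, 2.59 and 2.48 CPM in trained libraries and 3.0, 2.70 and 3.26 CPM in untrained libraries (log2 fold change -0.29 ± 0.23; edgeR adjusted p = 0.713). Its near-copies Dnah7a and Dnah7b had log2 fold changes of -0.21 ± 0.29 and -0.06 ± 0.18. Of the 150-base windows in a Dnah7 transcript, 4.88% to 7.78% also occurred in a given copy, so a part of these reads cannot be assigned with certainty. Dnah14, whose arm is not assigned here, averaged 1.74 ± 0.588 CPM in trained cord and 1.39 ± 0.244 CPM in untrained cord.

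The intermediate chains tie the motors to the doublet. Dnaic2, an outer arm intermediate chain, was the 1 member with an unadjusted edgeR p below 0.05 and a positive change. It had 6.08, 8.15 and 8.07 CPM in trained libraries and 5.41, 6.55 and 4.54 CPM in untrained libraries. Trained replicate 1 lay below untrained replicate 2, so the groups overlapped. The log2 fold change was 0.43 ± 0.19 (SE; edgeR unadjusted p = 0.0458, adjusted p = 0.493). Its partner in the same complex, Dnaic1, leaned the other way at 5.35 ± 0.490 CPM in trained cord and 6.22 ± 1.46 CPM in untrained cord (log2 fold change -0.22 ± 0.20). Dnali1, the light intermediate chain of the inner arm, averaged 3.87 ± 0.540 CPM in trained cord and 4.23 ± 0.834 CPM in untrained cord.

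Radial spoke genes were the role class with the highest median log2 fold change among classes of more than 1 gene, 0.16 over 6 tested members, of which 4 were positive and none passed. Rsph1, a spoke head protein, averaged 5.44 ± 0.666 CPM in trained cord and 4.48 ± 0.680 CPM in untrained cord (log2 fold change 0.28 ± 0.20). Rsph9, also of the spoke head, averaged 6.15 ± 0.389 CPM in trained cord and 5.85 ± 0.655 CPM in untrained cord. Rsph3b, of the spoke stalk, had 9.02, 8.40 and 10.2 CPM in trained libraries and 7.48, 7.27 and 7.80 CPM in untrained libraries, without overlap (log2 fold change 0.29 ± 0.15; edgeR adjusted p = 0.525). Its near-copy Rsph3a had 10.9, 6.92 and 7.26 CPM in trained libraries and 7.26, 7.21 and 6.90 CPM in untrained libraries, with trained replicate 1 far above the rest. Of the 150-base windows of the Rsph3a transcript 52.6% also occurred in Rsph3b, and 59.4% the other way round, so the split of reads between these genes is uncertain. Both near-copies count separately in the class median and among its positive members, though they are not independent cases.

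Tektins, filament proteins inside the doublets, gave a median log2 fold change of -0.06 over 4 tested members. Tekt5 had 33.8, 35.3 and 27.7 CPM in trained libraries and 30.6, 26.9 and 29 CPM in untrained libraries. The groups overlapped, and the log2 fold change of Tekt5 was 0.16 ± 0.10 (SE; 95% interval -0.06 to 0.39). Tekt1 averaged 2.88 ± 0.353 CPM in trained cord and 2.45 ± 0.656 CPM in untrained cord, and Tekt4 averaged 1.5 ± 0.271 CPM in trained cord and 1.85 ± 0.169 CPM in untrained cord.

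The Cfap genes were the largest class, with 27 of 31 tested, 10 positive and 17 negative and a median log2 fold change of -0.15. The abundant ones varied little. Cfap36 had 94.2, 97.3 and 84.1 CPM in trained libraries and 84.2, 92.8 and 89.7 CPM in untrained libraries, a range of 1.16-fold that was the smallest of the 59 tested members. Its log2 fold change was 0.05 ± 0.08 (95% interval -0.12 to 0.21). Cfap97 averaged 34.2 ± 3.26 CPM in trained cord and 34.1 ± 4.57 CPM in untrained cord. Cfap20, which joins the inner wall of the doublet, averaged 29.9 ± 1.49 CPM in trained cord and 26.1 ± 2.87 CPM in untrained cord (log2 fold change 0.19 ± 0.10; edgeR adjusted p = 0.540), and its groups did not overlap in CPM but did in TPM.

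The Cfap genes with an unadjusted p below 0.05 all had lower values in trained cord. Cfap54, a scaffold of the central pair, had 4.76, 5.19 and 5.28 CPM in trained libraries and 7.54, 7.03 and 6.39 CPM in untrained libraries. The groups did not overlap, at a log2 fold change of -0.46 ± 0.17 (SE; 95% interval -0.82 to -0.10; edgeR unadjusted p = 0.0155, adjusted p = 0.377). Cfap54 spans bases 92775619 to 93081618 of chromosome 10 on the minus strand. Cfap300, a dynein assembly factor with a slightly larger p, had 5.69, 6.11 and 6.02 CPM in trained libraries and 8.36, 7.09 and 6.97 CPM in untrained libraries (log2 fold change -0.33 ± 0.16; edgeR unadjusted p = 0.0596, adjusted p = 0.518). Cfap99 had 1.55, 1.05 and 1.06 CPM in trained libraries and 1.75, 2.40 and 1.98 CPM in untrained libraries, at a log2 fold change of -0.72 ± 0.31 (edgeR unadjusted p = 0.0353, adjusted p = 0.462). In Cfap300 and Cfap99, too, each trained library lay below each untrained one, and neither passed the test. Cfap57, singled out after its values were seen, had the most positive log2 fold change of the tested members, 0.67 ± 0.32, with the same edgeR p-values as Cfap300 to 3 digits. It had 1.36, 2.41 and 2.30 CPM in trained libraries and 1.09, 1.44 and 1.21 CPM in untrained libraries, and the groups overlapped.

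Cfap73, known in Chlamydomonas as part of a complex that regulates an inner arm dynein, had the widest gap of the 59 tested members, on few reads. It had counts of 5, 3 and 9 in trained and 13, 16 and 13 in untrained libraries. The filter, with a minimum count of 10, was met in the untrained group alone. Cfap73 thus entered the test only through the group where it was high, and its gap and p-value are no support for a change. The log2 fold change was -1.46 ± 0.51 (SE; 95% interval -2.57 to -0.34; edgeR unadjusted p = 0.0143, adjusted p = 0.373). Cfap73 lies at bases 120628335 to 120634235 of chromosome 5 on the minus strand and overlaps Ddx54 on the other strand. Whether reads were counted by strand is not given in the sources used here, so reads of these genes may not be told apart. Cfap52, a protein of the doublet interior singled out after its values were seen, had 1.63, 1.98 and 1.68 CPM in trained libraries and 2.18, 2.04 and 2.43 CPM in untrained libraries (edgeR adjusted p = 0.707).

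One untrained library stood out for the cilia members. Untrained replicate 1 was the highest of the 6 libraries in 21 of 59 members (35.6%), whereas it was the highest in 15.5% of all genes tested. The mean over members of the centred log2 CPM was -0.06, -0.08 and -0.00019 in trained and 0.16, 0.02 and -0.04 in untrained libraries. Without untrained replicate 1 the median log2 fold change of the members was -0.016, with 30 of 59 negative and 0 past the test. Split by promoter, the median log2 fold change was -0.06 in 27 tested members that have an RFX half-site and -0.18 in 21 that have a promoter without one.

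**Figure D4:**
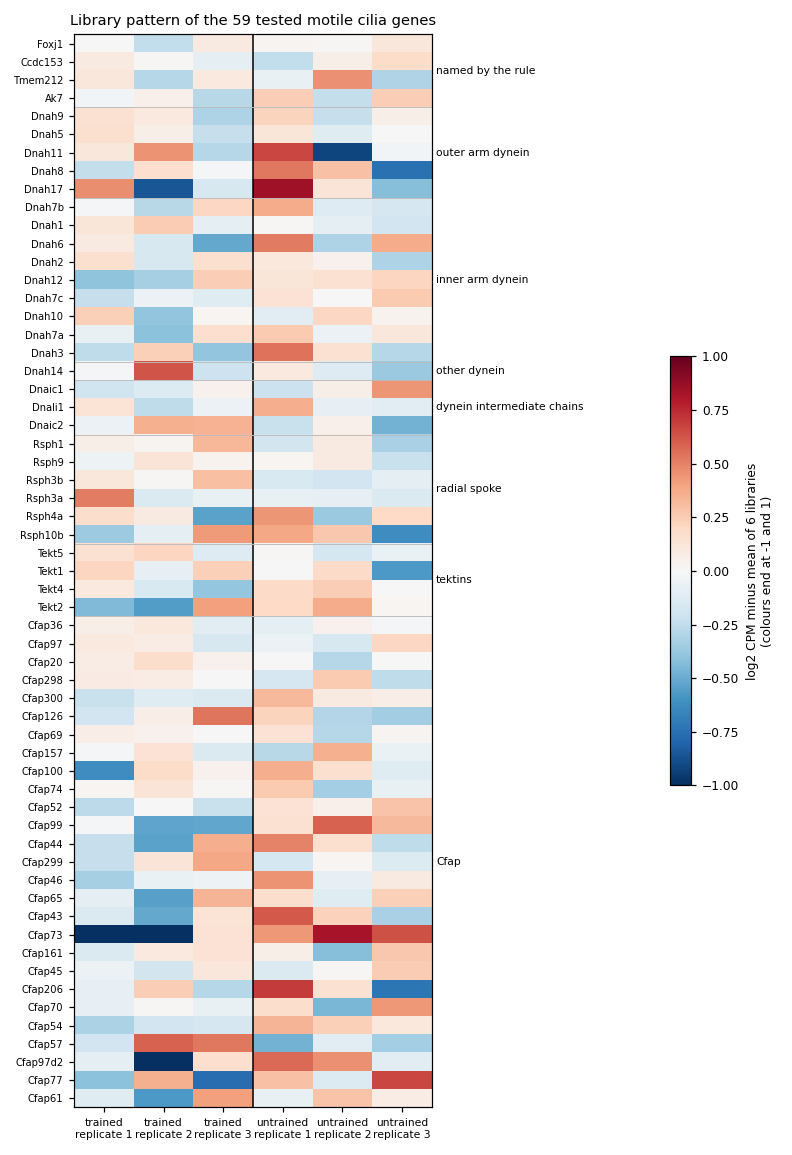
Each tested member (rows, by role) in each library (columns, trained left of the line, untrained right), as log2 CPM minus the mean of the 6 libraries; red is above and blue below that mean, and colours end at -1 and 1. The column of untrained replicate 1 is the reddest, with the highest value in 21 of 59 genes, and the rows of Cfap54 and Cfap300 change from blue to red across the line.

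The members differed in how widely the libraries spread. Over the 59 members the highest library was a median of 1.60 times the lowest, and in 19 members it was at least 2 times the lowest. The widest range of these was that of Cfap73, at 5.19-fold. Of the 7 members below the filter, Cfap221, of the central pair, had 0.349, 0.124 and 0.310 CPM in trained libraries and 0.765, 1.14 and 0.447 CPM in untrained libraries. The others of these 7 were Cfap53, Cfap58, Cfap97d1, Rsph14, Rsph6a and Tekt3, each with group means below 0.6 CPM.

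Other genes of the same organelle did not pass the test either. Of 45 motile cilia genes outside the naming rule 43 were tested, 0 passed, 19 were positive and 24 negative, and the median log2 fold change was -0.05. Tppp3, a tubulin-binding protein that is also made by oligodendrocytes, was the 1 gene of this list with an unadjusted edgeR p below 0.05. It had 315, 282 and 307 CPM in trained libraries and 236, 264 and 250 CPM in untrained libraries, without overlap (log2 fold change 0.27 ± 0.08; edgeR adjusted p = 0.272). The summed level of the list was 542, 500 and 523 CPM in trained libraries and 468, 486 and 474 CPM in untrained libraries. Without Tppp3 the other 44 genes summed to 227, 218 and 215 CPM in trained libraries and 232, 222 and 223 CPM in untrained libraries, and the groups overlapped. Among 16 tested genes of dynein docking and assembly the median was 0.06 and 0 passed, and among 26 genes of intraflagellar transport, the trains that build all cilia, the median was 0.00077 and 0 passed.

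Regulators that switch on multiciliation did not pass. Of 16 such genes 11 were tested, 0 passed, and the median log2 fold change was -0.09. Rfx3, a factor that binds the X-box, had 15.3, 14.7 and 14.8 CPM in trained libraries and 16.8, 15.2 and 15.6 CPM in untrained libraries (log2 fold change -0.09 ± 0.11; edgeR adjusted p = 0.829). Mcidas and Ccno, which act while a cell is forming its cilia, stayed between 0.109 and 0.618 CPM in all libraries and were not tested.

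Levels of other cell types were compared in the same libraries. The non-ciliary ependymal markers summed to 153, 184 and 176 CPM in trained libraries and 186, 190 and 168 CPM in untrained libraries, and the median log2 fold change of the 7 tested ones was -0.01. In 6 astrocyte genes the median was -0.15, in 5 microglial genes -0.19 and in 4 endothelial genes -0.27, while it was 0.07 in 5 oligodendrocyte genes and -0.0083 in 5 neuronal genes. None of these genes passed the test. The 4 meningeal genes summed to 41.9, 240 and 262 CPM in trained libraries and 253, 137 and 135 CPM in untrained libraries. Untrained replicate 1, the highest library for the cilia members, was also the highest for the endothelial and the meningeal list on the mean of centred log2 CPM. On the same measure that library was the lowest for the oligodendrocyte list, at -0.19. For the astrocyte, microglial, neuronal and non-ciliary ependymal lists another library was the highest. The part of these cell types in the values of the cilia genes was not tested.

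**Figure D5:**
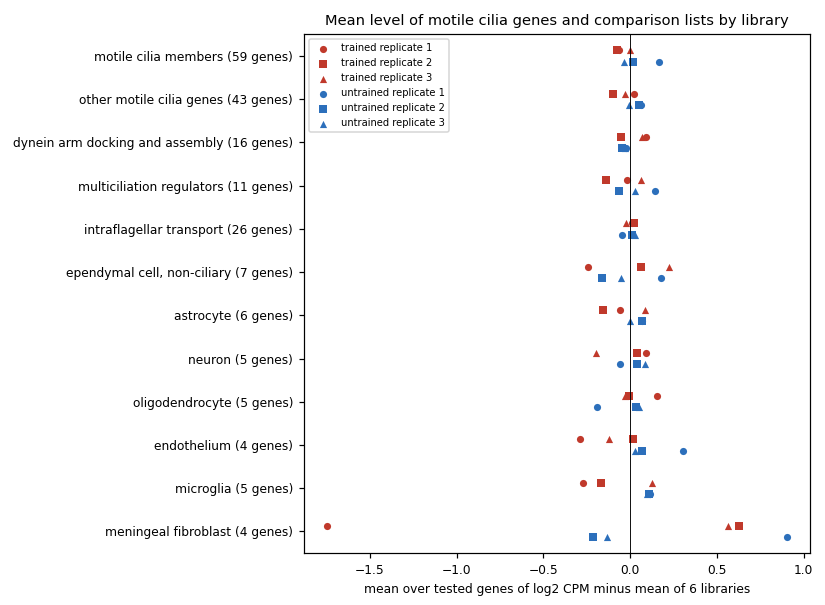
Mean over the tested genes of a list of log2 CPM minus the mean of the 6 libraries, 1 point per library, red for trained and blue for untrained, with the number of genes in brackets. The cilia members lie between -0.08 and 0.16 with untrained replicate 1 highest, and of the lists drawn the meningeal one spreads most, with trained replicate 1 lowest at -1.75.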

How the data were processed

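Total RNA of injured mouse spinal cord was sequenced in 3 trained and 3 untrained libraries. The table deposited by the authors holds whole-number read counts by Ensembl ID, without normalization, beside symbols, positions and lengths. Bowtie 0.12.2, mm8 and mm9 (genome builds) appear in the submitters' processing notes without a role. How reads were counted, against which annotation and whether by strand is not given in the sources used here. Gene length as deposited (in bases, another column of the table) served only for TPM. In GENCODE M21 of GRCm38, 61 of the 66 members have the same ends. By the positions in the table, 36 overlap a row on the opposite strand. Another coding gene is overlapped by 17, among them Cfap97, Dnaic1, Dnali1, Rsph9 and Dnah11, whose reads may not be told apart from its reads.

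Testing of the counts used edgeR 4.0.16 under R 4.3.3 (TMM, filterByExpr by group, robust quasi-likelihood fit, group as the only term), with Benjamini-Hochberg adjustment over 16909 genes and a threshold of 0.05. The biological coefficient of variation was 0.122. A standard error is the log2 fold change divided by the square root of F, and the 95% interval uses the fit's degrees of freedom. Binomial intervals are exact (Clopper-Pearson); they and the floor of 3 counts cover counting error only. The edgeR step was also run on counts simulated from the means and dispersions of these data, with changes planted in the more abundant genes only. That run checks the working of the step and does not show how well changes in low members are detected.

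Members and lists were chosen with earlier results of these data known. The naming rule took Foxj1, Ccdc153, Tmem212 and Ak7, the 3 members of highest TPM in each role, the 5 of smallest p and the near-copies; it also took the 2 highest of each list. Genes named beyond it (such as Cfap52, Cfap221, Dnah8, Dnah17 and Rfx3) were chosen after their values were seen. Alternatives were RLE and upper-quartile scaling, 2 other filters, DESeq2 1.42.0, limma-voom (limma 3.58.1), a replicate block, another threshold, another promoter window and leaving out each library. Some items are not reported here.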

Additional observations from a re-analysis of the deposited data

How the results depend on the processing

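In every alternative 0 members passed, and the smallest edgeR adjusted p of any member was 0.101 (Cfap73 without trained replicate 3, log2 fold change -2.07). The member median kept its sign, from -0.14 to -0.016 when 1 library was left out; without untrained replicate 1 it was -0.016. The count over all genes, 10, was less stable: 276 with no filter on low counts, 88 in DESeq2, 18 at a threshold of 0.1, and 4 (without trained replicate 2) to 221 (without trained replicate 3) when 1 library was left out; the cause was not tested. Same-numbered libraries did not deviate together (correlations -0.18, -0.09 and -0.13 over 16909 genes). With 3 libraries per group such correlations cannot exclude a pairing by number, and whether the numbers pair the libraries is not known. With a replicate block 5 genes and 0 members passed, and Dnah5 was at -0.0012.

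Of 30 named members under 13 alternatives each (Cfap73 was not tested under the filter of 1 CPM in 3 libraries), 361 values kept their direction and side of the threshold and 28, in 10 members, changed sign. Ccdc153 (-0.0022) was at 0.0020 with RLE, 0.022 with upper-quartile scaling, 0.0086 with no filter, 0.0032 in DESeq2, 0.024 in limma-voom and 0.0058 with the block. When 1 library was left out the log2 fold change ranged from -0.11 to 0.093 for Ccdc153, -0.069 to 0.12 for Cfap97, -0.26 to 0.56 for Dnah11, -0.085 to 0.13 for Dnah5, -0.16 to 0.15 for Dnah7b, -0.15 to 0.12 for Dnah9, -0.24 to 0.061 for Dnali1, -0.0083 to 0.36 for Rsph3a, -0.016 to 0.13 for Rsph9 and -0.23 to 0.18 for Tmem212. With 200 bases before the start the half-site share was 53.7%. The median member had 360.5 reads in all, which limits what can be seen.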
